A study of Mus musculus with 6 samples.

Results

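The chemokine ligand and receptor genes were examined in 4T1, an established line of mouse mammary carcinoma cells, with and without the kinase inhibitor TKI258. Members were all genes whose symbol begins with Ccl, Cxcl, Cx3cl, Xcl, Ccr, Cxcr, Cx3cr, Xcr or Ackr followed by a digit, and the brightest probe set over the 6 arrays stood for each gene. This gave 56 of the 19938 genes measured, 34 ligands and 22 receptors. The cells had been seeded at 750000 per 10 cm dish in DMEM with 10% FCS and grown for 24 h. The medium was then replaced by DMEM with 10% FCS and either 500 nM TKI258 or the vehicle DMSO for 16 h. TKI258, also called dovitinib, inhibits receptor tyrosine kinases including the FGF, VEGF and PDGF receptors. RNA came from 3 dishes per condition, each hybridised to 1 Affymetrix array. All dishes held the same 1 line, so dish-to-dish spread does not cover other tumours.

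Chemokines are small secreted proteins that draw leukocytes along a gradient by binding G protein-coupled receptors. Those of the CXC class with a Glu-Leu-Arg motif mainly attract neutrophils, many CC chemokines attract monocytes, and the interferon-induced CXC chemokines attract activated T cells. Atypical receptors bind chemokines without classical G protein signalling and take them up for breakdown. Carcinoma cells make chemokines themselves, and 4T1 tumours are known for recruiting myeloid cells.

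Values are log2 signals, so a difference of 1 is a 2-fold change. Differences are TKI258 minus DMSO, with standard errors (SE) from a moderated limma fit and n = 3 arrays per group. A gene passed at a Benjamini-Hochberg adjusted p below 0.05 over all genes. Over all genes the arrays correlated at 0.997 to 0.998 within a group and at 0.988 to 0.990 between groups, and their medians lay between 4.97 and 5.04. Because the samples were bulk RNA, fewer cells with a transcript and less of it per cell cannot be told apart.

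After TKI258 the neutrophil attractant genes Cxcl15, Cxcl5 and Cxcl1 rose, the monocyte attractant genes Cx3cl1 and Ccl2 fell, and the T cell and monocyte attractant gene Ccl5 rose. Among receptors, the T cell chemokine receptor gene Cxcr3 fell, while the atypical receptor gene Ackr3 and the Cxcl12 receptor gene Cxcr4 rose. The calls of Ccl2 and Cxcr4 were the least stable, held in 9 and 6 of 15 alternative fits. In all, 9 of 56 members passed in limma, or 16.1%, against 27.0% of all genes. The 6 that rose compare with 14.4% of all genes called higher, and the 3 that fell with 12.6% called lower. Changes of at least 2-fold were seen in 2 members upward (Cxcl15 and Cxcl5) and 1 downward (Cxcr3), against 1.45% and 0.697% of all genes. The 3 DMSO and 3 TKI258 values did not overlap in 18 members, while 40.2% of all genes showed no overlap.

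Most of the family was dim on these arrays. The mean signal of 41 members lay below the median over all probe sets, a log2 signal of 4.999, and 0 of these 41 passed in limma, although 6 had an unadjusted p below 0.05. Of all genes this dim, 4.85% passed, against 44.2% of brighter genes. The 9 members that passed were among the 15 brighter ones. Cxcl15 and Ackr3 were above that median only through their TKI258 arrays, so their place among the brighter genes follows from their rise. Detection calls were not part of the values used, so dim members are not called absent.

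**Figure D1:**
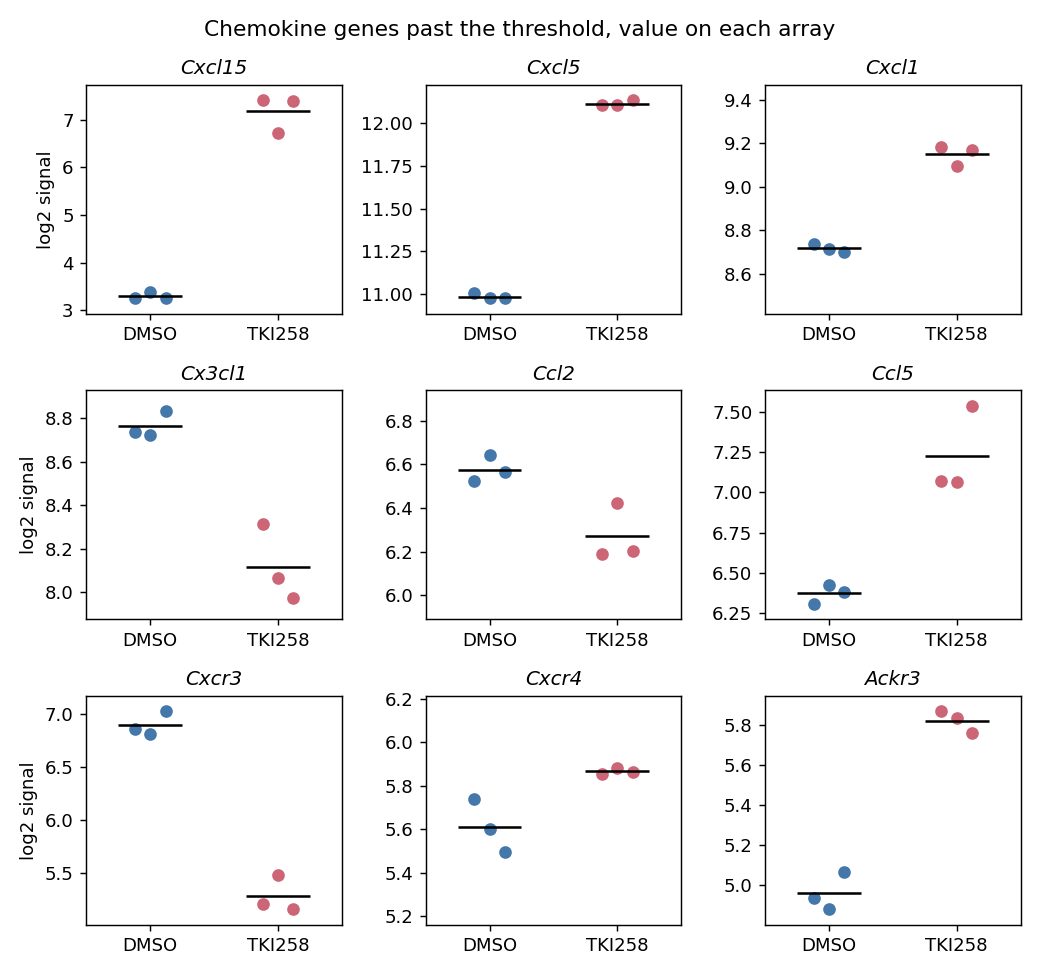
Each panel plots the log2 signal of 1 gene on each array, with DMSO dishes in blue, TKI258 dishes in red, and a black line at each group's mean (n = 3). The panels have different vertical scales, and the groups do not overlap in any of the 9 genes, with Cxcl15 spanning the widest gap.

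Cxcl15 and Cxcl5, both neutrophil attractants, had the largest log2 changes among the 34 ligands. Of the 5 neutrophil attractants measured, Cxcl15, Cxcl5 and Cxcl1 rose and 0 fell, while 27.0% of all genes passed and 14.4% were called higher. The median log2 change of the 5 was 0.43 against 0.01 over all genes. The 3 that rose were those with a mean above the median over all probe sets, where 44.2% of all genes passed. Cxcl15 was above that median only through its TKI258 arrays, and the other 2 genes were dim. Cxcl15, a neutrophil chemoattractant also named lungkine, gave 3.25, 3.38 and 3.26 with DMSO and 7.41, 6.72 and 7.40 with TKI258. All TKI258 arrays were far above all DMSO arrays, and TKI258 replicate 2 was the lowest of its group. The group means were 3.30 ± 0.07 and 7.18 ± 0.40 (SD, n = 3), a log2 change of 3.88 (SE 0.17, adjusted p = 1.30e-06 in limma) or 14.7-fold. The DMSO values were below the median over all probe sets and not shown to be above background, so the size of this fold is uncertain. Without TKI258 replicate 2 the change was 4.11, the highest of its alternatives.

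Cxcl5, a Cxcr2 ligand of epithelial cells, read 11.001, 10.973 and 10.973 with DMSO and 12.106, 12.106 and 12.136 with TKI258. Dishes of a group lay closer together for Cxcl5 than the treatment difference by a wide margin, with an SD of 0.02 in each group. Its log2 change was 1.13 (SE 0.06, adjusted p = 2.97e-06 in limma), a 2.19-fold rise. Cxcl1, the chemokine KC, another Cxcr2 ligand, read 8.74, 8.71 and 8.70 with DMSO and 9.18, 9.09 and 9.17 with TKI258. The groups were again separate, at a smaller distance, with a log2 change of 0.43 (SE 0.06, adjusted p = 7.14e-04 in limma) or 1.35-fold. Tested against a minimum fold of 1.2 with limma's treat, Cxcl1 no longer passed (adjusted p = 0.101).

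Cxcl3 and Cxcl2, which also act through Cxcr2, did not pass. Cxcl3 read 3.66, 3.81 and 3.87 with DMSO and 3.88, 3.96 and 4.03 with TKI258, groups that touched without overlapping (log2 change 0.18, adjusted p = 0.127). Cxcl2 read 3.63, 3.50 and 3.51 against 3.65, 3.63 and 3.76, which overlapped (log2 change 0.14, adjusted p = 0.214). The upper ends of their 95% intervals were 0.35 for Cxcl3 and 0.29 for Cxcl2, below the lower end of 1.00 for Cxcl5 and of 3.50 for Cxcl15. The interval of Cxcl1, 0.29 to 0.57, overlapped those of Cxcl3 and, barely, Cxcl2. Cxcl3 and Cxcl2 were below the median over all probe sets in both groups, and changes are compressed at low signal. The receptor gene Cxcr2 and the other neutrophil-type receptor gene, Cxcr1, had log2 changes of 0.0095 and -0.00077 and did not pass. Both receptor genes also lay below that median in both groups.

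These ligand genes are neighbours. In the RefSeq gene table of assembly GRCm38.p6, Cxcl5, Ppbp, Pf4, Cxcl3, Cxcl15, Cxcl1 and Cxcl2 follow one another on chromosome 5 with 0 other protein-coding genes between them. Ppbp and Pf4 encode platelet chemokines whose symbols lie outside the rule. Ppbp read 4.32, 4.38 and 4.60 with DMSO and 4.77, 4.84 and 5.46 with TKI258, and rose by 0.59 (SE 0.17, adjusted p = 0.0275 in limma). Its mean over all arrays lay below the median over all probe sets, and TKI258 replicate 3 stood apart as its highest array. Pf4 had a log2 change of 0.10 and did not pass. In this row Cxcl5, Ppbp, Cxcl15 and Cxcl1 rose and Pf4, Cxcl3 and Cxcl2 did not pass. The row's largest change, in Cxcl15, lay between Cxcl3 at 0.18 and Cxcl1 at 0.43.

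The 250 bases before the annotated start are shown for the 4 of the 5 neutrophil attractant genes found in the promoter table. They are shown because some of these neighbours passed and others did not, though differences between genes were not tested. The same stretch is shown for Cxcl10, the interferon-induced ligand described further on. Sequences are RefSeq's, from GRCm38.p6, written 5′ to 3′ on the strand of the gene, which is the plus strand except for Cxcl10. Capitals mark GGAANTTCC, which reads the same on both strands and is part of many NF-kB sites, and, in Cxcl10 only, also TTTC, any 2 bases, TTTC on either strand, an interferon element.
Cxcl15, chr5:90794284-90794533: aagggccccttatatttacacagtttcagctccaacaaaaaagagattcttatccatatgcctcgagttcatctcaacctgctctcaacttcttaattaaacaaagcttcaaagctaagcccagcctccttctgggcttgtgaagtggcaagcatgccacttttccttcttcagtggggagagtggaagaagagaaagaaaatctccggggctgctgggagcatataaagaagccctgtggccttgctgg
Cxcl1, chr5:90890995-90891244: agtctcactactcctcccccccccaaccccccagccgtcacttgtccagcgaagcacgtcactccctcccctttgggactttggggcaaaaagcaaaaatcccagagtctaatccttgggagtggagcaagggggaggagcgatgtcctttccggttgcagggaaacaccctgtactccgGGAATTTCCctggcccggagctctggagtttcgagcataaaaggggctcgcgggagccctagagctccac
Cxcl2, chr5:90903649-90903898: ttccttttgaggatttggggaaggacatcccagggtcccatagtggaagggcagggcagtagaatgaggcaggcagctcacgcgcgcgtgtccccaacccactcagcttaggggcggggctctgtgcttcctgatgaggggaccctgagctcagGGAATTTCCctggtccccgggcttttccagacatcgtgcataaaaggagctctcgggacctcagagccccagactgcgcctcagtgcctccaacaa
Cxcl3, chr5:90785851-90786100: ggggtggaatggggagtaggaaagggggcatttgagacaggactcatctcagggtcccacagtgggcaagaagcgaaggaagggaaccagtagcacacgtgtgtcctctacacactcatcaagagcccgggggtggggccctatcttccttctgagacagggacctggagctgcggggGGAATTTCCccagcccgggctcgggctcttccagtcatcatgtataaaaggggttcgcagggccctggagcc
Cxcl10, chr5:92348890-92349139: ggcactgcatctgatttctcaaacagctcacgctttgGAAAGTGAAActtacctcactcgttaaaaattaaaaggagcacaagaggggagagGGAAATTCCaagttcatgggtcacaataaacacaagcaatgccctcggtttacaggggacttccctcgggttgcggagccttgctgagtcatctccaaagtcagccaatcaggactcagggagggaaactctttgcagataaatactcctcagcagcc

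The letters GGAATTTCC stand in the windows of Cxcl1, Cxcl2 and Cxcl3, beginning 70, 96 and 72 bases before the start. GGAANTTCC occurs in 0.813% of the 32851 promoter windows in the table and in those of 7 of the 42 members found there. The other motifs searched, on both strands, were the NF-kB type GGG, any 5 bases, CC (45.8% of all windows, 25 of 42 members), GGAANTCC (4.00% and 5 members), the interferon element (2.98% and 3 members) and TGANTCA of AP-1 (6.75% and 4 members). GGAANTTCC was added after the sequences were seen, and a match to the longer NF-kB type can overlap one to GGAANTTCC. The Cxcl15 window held 0 matches to all 5 motifs, which says only that these letters are not in it.

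**Figure D2:**
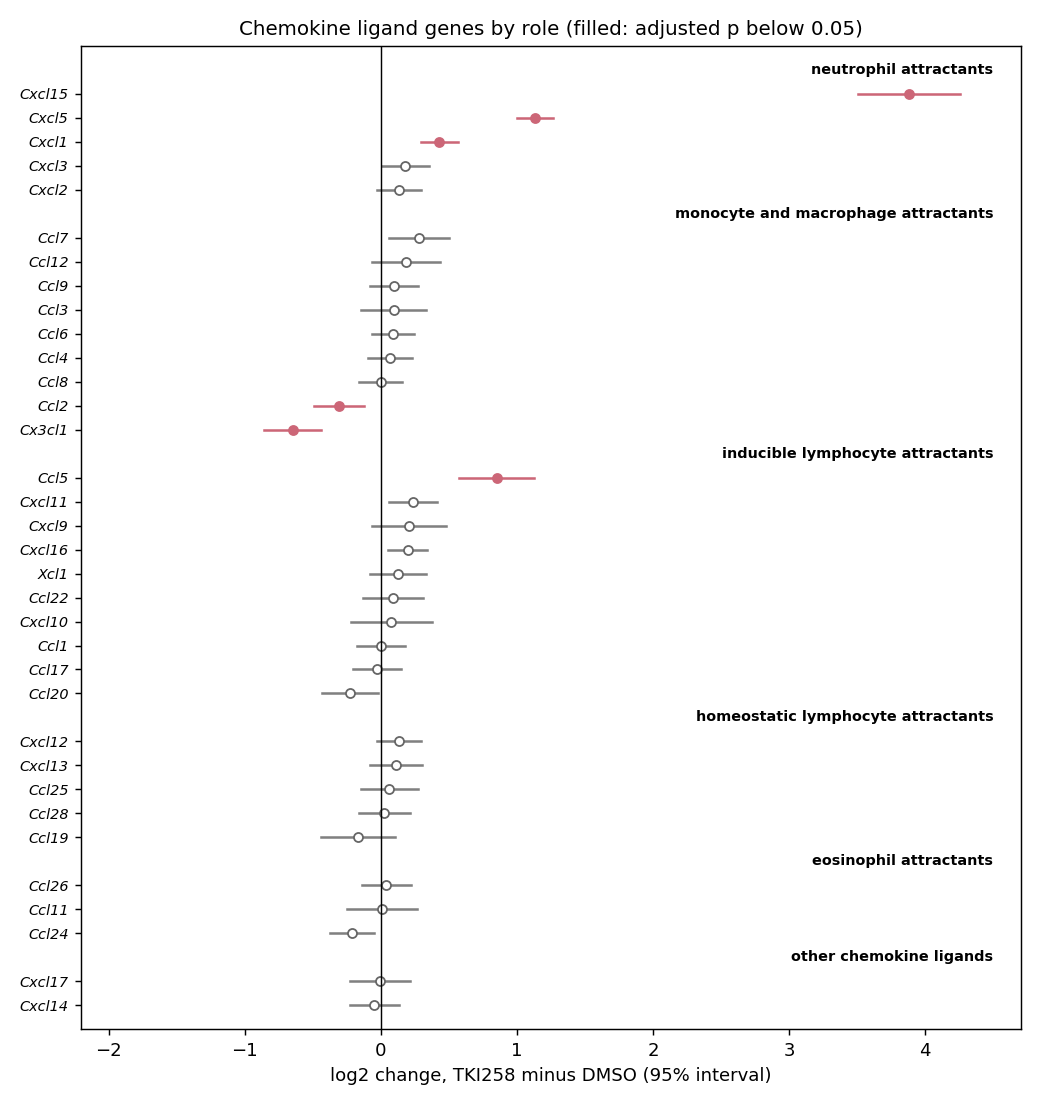
Points give the log2 change (TKI258 minus DMSO) of each of the 34 ligand genes with its 95% interval from limma, grouped by the leukocytes attracted and ordered within a group by size. Filled red points passed, and they are 3 of 5 neutrophil attractants (all upward), 2 of 9 monocyte attractants (both downward) and Ccl5. Of all genes 27.0% passed.

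Of 9 monocyte and macrophage attractants measured, Cx3cl1 and Ccl2 fell and 0 rose, with a median log2 change of 0.09. The share that passed, 22.2%, was near the 27.0% of all genes, and 6 of the 9 changes were above 0. Cx3cl1, fractalkine, a membrane-bound chemokine that also tethers the leukocytes it attracts, read 8.74, 8.72 and 8.83 with DMSO and 8.31, 8.06 and 7.97 with TKI258. Every TKI258 array was below every DMSO array, with a mean of 8.12 ± 0.18 against 8.76 ± 0.06 (SD, n = 3). The log2 change was -0.65 (SE 0.09, adjusted p = 7.27e-04 in limma), which left 63.9% of the DMSO signal. Its receptor gene Cx3cr1 had a log2 change of 0.18 and did not pass (adjusted p = 0.226). On chromosome 8, Cx3cl1 lies between Ccl22 and Ccl17 with 0 other protein-coding genes between them, and these neighbours had log2 changes of 0.09 and -0.03 without passing.

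Ccl2, the monocyte chemoattractant MCP-1, read 6.52, 6.64 and 6.56 with DMSO and 6.19, 6.42 and 6.20 with TKI258. The groups did not overlap, though TKI258 replicate 2 came near the DMSO arrays, and Ccl2 fell by 0.31 (SE 0.08, adjusted p = 0.0196 in limma). Ccl2 did not pass when 1 of 4 arrays was left out: DMSO replicate 2 (adjusted p = 0.0771), DMSO replicate 3 (0.0538), TKI258 replicate 1 (0.0625) or TKI258 replicate 3 (0.0581). Ccl7, the neighbouring gene on chromosome 11 and a relative that also acts through Ccr2, read 4.55, 4.65 and 4.91 against 4.97, 4.92 and 5.08. Its groups touched without overlapping, and it had a log2 change of 0.28 that did not pass (adjusted p = 0.0637), but did without DMSO replicate 3 (adjusted p = 0.0125). The 95% intervals of Ccl2 (-0.49 to -0.12) and Ccl7 (0.06 to 0.50) lay on opposite sides of 0, and the difference between the 2 genes was not tested.

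Beyond Ccl7 on that chromosome follow Ccl11, Ccl12, Ccl8 and Ccl1, with log2 changes of 0.0088, 0.18, -0.0019 and 0.0028, and 0 of these 4 passed (0 at an unadjusted p below 0.05). The inflammatory monocyte and macrophage attractant genes Ccl3, Ccl4, Ccl6 and Ccl9, in a second row with Ccl5 on the same chromosome, had log2 changes from 0.07 to 0.10 and did not pass either. The Ccl2 receptor gene Ccr2 had a log2 change of -0.07 (adjusted p = 0.580).

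**Figure D3:**
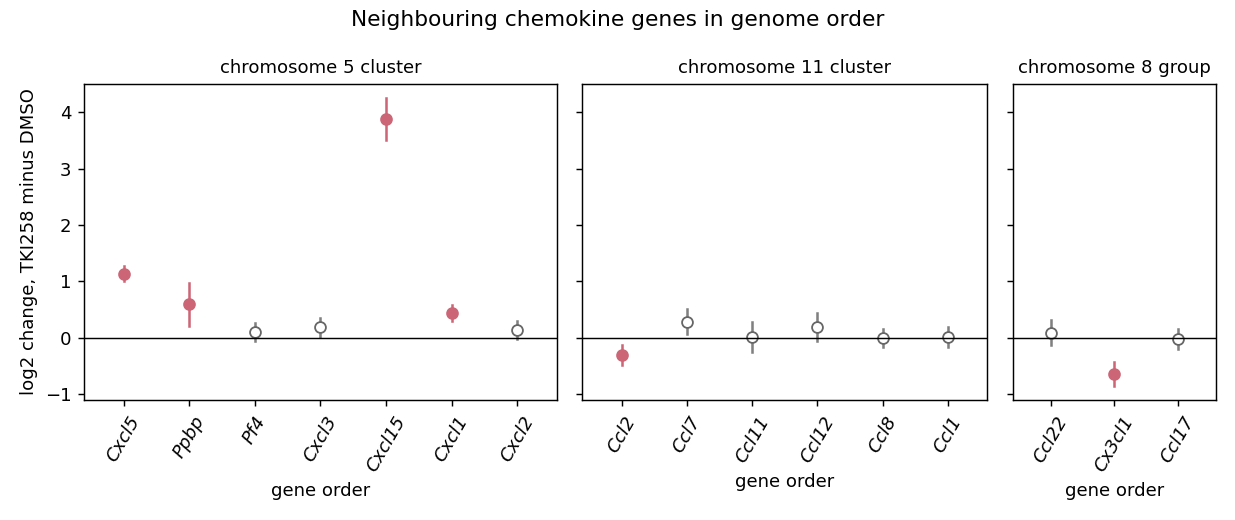
Log2 changes with 95% intervals are drawn for 3 rows of neighbouring chemokine genes in their genome order, evenly spaced rather than by distance, with filled red points for genes that passed. In the chromosome 5 row Cxcl15 stands at 3.88 with Cxcl3 and Cxcl1 beside it at 0.18 and 0.43, and in the other rows only Ccl2 and Cx3cl1 passed.

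Of the 10 inducible lymphocyte attractants, Ccl5 rose, 0 fell, and the median log2 change was 0.11. The share that passed was 10.0%, against 27.0% of all genes. Ccl5, or RANTES, which attracts T cells and also monocytes, read 6.31, 6.43 and 6.38 with DMSO and 7.07, 7.06 and 7.54 with TKI258. TKI258 replicate 3 was the highest array, and the groups were separate. The log2 change was 0.85 (SE 0.12, adjusted p = 7.53e-04 in limma) or 1.80-fold, and without TKI258 replicate 3 it was 0.69.

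The Cxcr3 ligands Cxcl9, Cxcl10 and Cxcl11, which interferons induce and which attract activated T cells, did not pass. Cxcl10 read 5.51, 5.63 and 5.57 with DMSO and 5.43, 5.99 and 5.53 with TKI258, so that 1 TKI258 array lay above, 1 within and 1 below the DMSO range. Its log2 change was 0.08 (95% interval -0.22 to 0.38, adjusted p = 0.747). Cxcl9 read 4.43, 4.06 and 4.12 against 4.52, 4.19 and 4.51, with overlapping groups (log2 change 0.21, adjusted p = 0.269). Cxcl11 read 3.87, 4.05 and 3.85 against 4.19, 4.07 and 4.21, with groups that did not overlap (log2 change 0.24, adjusted p = 0.0547). It passed without DMSO replicate 2 or TKI258 replicate 2 and with renewed quantile normalization (adjusted p = 0.0307, 0.0478 and 0.0442).

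Cxcl16, a membrane-bound ligand of Cxcr6, read 8.12, 8.22 and 8.21 with DMSO and 8.39, 8.33 and 8.43 with TKI258. The groups were separate but close, and the log2 change of 0.20 missed the threshold narrowly (adjusted p = 0.0507). Cxcl16 passed in 4 of 15 alternatives, among them renewed quantile normalization (adjusted p = 0.0485). Ccl20, the Ccr6 ligand, read 5.193, 5.134 and 5.419 against 5.004, 5.138 and 4.934, with groups that overlapped at TKI258 replicate 2 (log2 change -0.22, adjusted p = 0.111). The remaining 4 genes of this list, Xcl1, Ccl22, Ccl17 and Ccl1, had log2 changes from -0.03 to 0.13.

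Homeostatic lymphocyte attractants, which guide lymphocytes in resting tissues, gave 0 calls among 5 measured genes in limma and 0 at an unadjusted p below 0.05. Of these 5, 4 lay below the median over all probe sets, where 4.85% of all genes passed. Cxcl12, the ligand of Cxcr4 and Ackr3, had a log2 change of 0.13 (95% interval -0.03 to 0.30, adjusted p = 0.231). Ccl19 had -0.17 (adjusted p = 0.386), read by 5 probe sets of which 2 held identical values. For Ccl25, singled out after its values were seen, the probe set used gave 0.06 and the other -0.24, and neither passed. Of the eosinophil attractants 0 of 3 passed, and all 3 lay below the median over all probe sets. Ccl24 had a log2 change of -0.21 (adjusted p = 0.0542) and passed without TKI258 replicate 3 (adjusted p = 0.0169), and Ccl26 had 0.04. Cxcl14 and Cxcl17, ligands in no other list, had -0.05 and -0.0040.

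Over the 28 ligands that did not pass, log2 changes ran from -0.22 to 0.28. Their 95% intervals lay between -0.44 and 0.50, so each of these 28 intervals excludes a 2-fold change in array signal, a log2 change of 1, in either direction. In 23 of the 28 both group means lay below the median over all probe sets. Changes are compressed at low signal, so for these 23 a 2-fold change in transcript is not excluded.

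**Figure D4:**
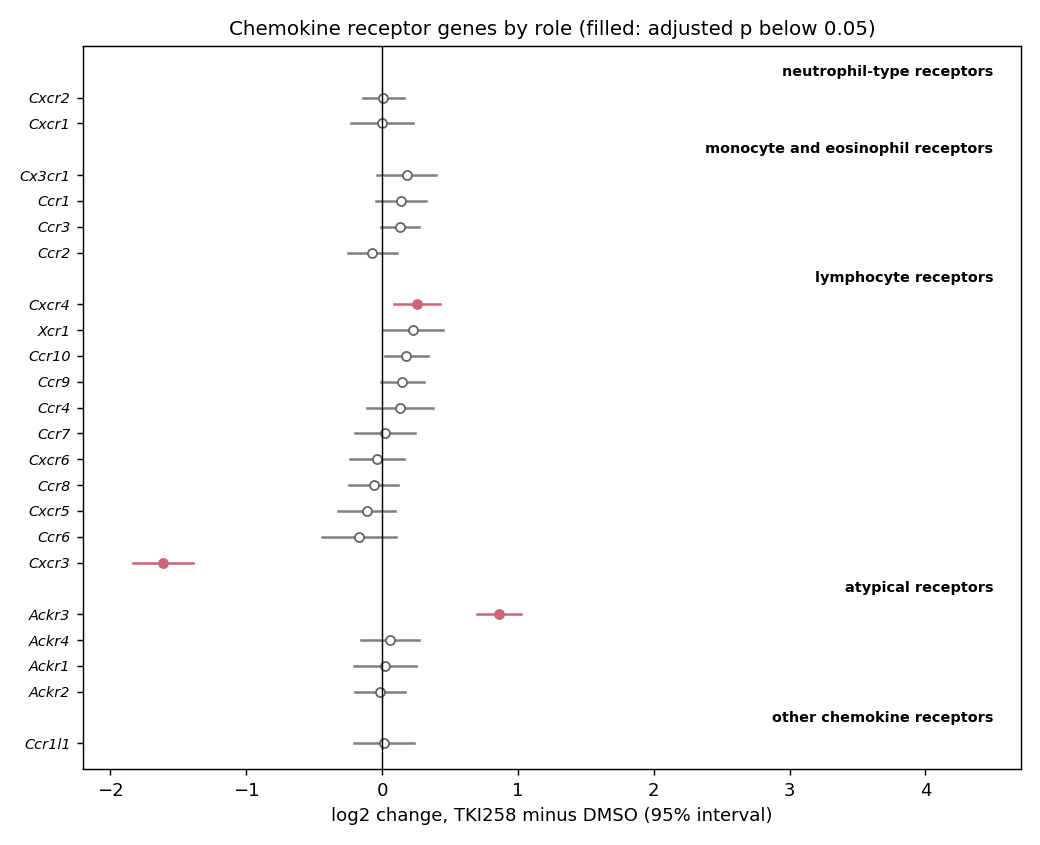
Points give the log2 change (TKI258 minus DMSO) of each of the 22 receptor genes with its 95% interval from limma, grouped by the cells that usually carry them. Filled red points passed: Cxcr3 at -1.62, Ackr3 at 0.86 and Cxcr4 at 0.25.

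Among 22 receptors 2 rose and 1 fell. The share that passed was 13.6%, against 27.0% of all genes, and 18 of the 22 lay below the median over all probe sets. Cxcr3, the receptor of Cxcl9, Cxcl10 and Cxcl11 on activated T cells, read 6.86, 6.81 and 7.02 with DMSO and 5.21, 5.47 and 5.16 with TKI258. The lowest DMSO array was above the highest TKI258 array by more than the range within either group. The means were 6.90 ± 0.11 and 5.28 ± 0.17 (SD, n = 3). Cxcr3 fell by 1.62 on the log2 scale (SE 0.10, adjusted p = 6.43e-06 in limma), to 32.6% of the DMSO signal. Across 15 alternatives its log2 change stayed between -1.71 and -1.55.

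Ackr3, formerly Cxcr7, an atypical receptor that takes up Cxcl12 and Cxcl11, read 4.93, 4.88 and 5.06 with DMSO and 5.87, 5.83 and 5.76 with TKI258. All TKI258 arrays were higher, with a log2 change of 0.86 (SE 0.07, adjusted p = 3.45e-05 in limma) or 1.82-fold. Cxcr4, the signalling receptor of Cxcl12, read 5.74, 5.60 and 5.49 against 5.85, 5.88 and 5.86. DMSO replicate 1 came close to the TKI258 arrays, and Cxcr4 rose by 0.25 (SE 0.08, adjusted p = 0.0332 in limma). Cxcr4 did not pass when 1 of 5 arrays was left out: DMSO replicate 2 (adjusted p = 0.0965), DMSO replicate 3 (0.122), or TKI258 replicate 1 (0.0638), replicate 2 (0.0853) or replicate 3 (0.0651). It did not pass either with renewed quantile normalization and with the arrays centred on their medians (adjusted p = 0.0621 and 0.0569).

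The other 19 receptors did not pass, with log2 changes from -0.17 to 0.22 and 95% intervals between -0.44 and 0.45. Of the lymphocyte receptors, Ccr10, which binds Ccl27 and Ccl28, had 0.18 (adjusted p = 0.0959) and passed without TKI258 replicate 3 (adjusted p = 0.0358). Xcr1, which binds Xcl1, had 0.22 (adjusted p = 0.135) and passed without DMSO replicate 3 (adjusted p = 0.0440). Ccr7, the receptor for Ccl19 and Ccl21, had 0.02. Ccr3, an eosinophil receptor, had 0.13 (adjusted p = 0.163). Of the other atypical receptors Ackr4 had 0.06 and Ackr1 0.02, and Ccr1l1, a relative of Ccr1, had 0.01.

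Genes that act around the chemokines were counted from textbook lists. Of 14 genes in a list of NF-kB subunits and regulators, which also held the C/EBP genes Cebpb and Cebpd, 7 rose and 0 fell in limma, with a median log2 change of 0.25. All 14 were above the median over all probe sets, where 44.2% of genes passed, so 7 of 14 is near that background. Those that rose included the NF-kB inhibitor genes Nfkbie at 0.87 and Nfkbia at 0.79, the feedback deubiquitinase gene Tnfaip3 at 0.55, and Cebpb, a factor of the acute-phase response, at 0.73. Among subunit genes, Relb rose by 0.28, while Rela, Rel and Nfkb2 had 0.09, 0.02 and 0.03 and did not pass. Of 17 interferon and STAT regulators 11 rose and 1 fell, with a median of 0.36. These 17 were likewise all above the median over all probe sets, and 70.6% passed. The smallest adjusted p values in limma were those of Irf1 at 1.36, Stat3 at 0.84, Stat2 at 1.03 and Irf9 at 0.98. The gene that fell was the myeloid factor Irf8, at -1.09.

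Of 28 measured genes of chemokine receptor signalling 3 rose and 2 fell, with a median of 0.04. The share that passed was 17.9%, below the 27.0% of all genes. The receptor kinase gene Grk6 (-0.72) and the G protein regulator gene Rgs16 (-0.46) fell, while the kinase genes Grk5 and Ptk2b rose by 0.41 and 0.36 and the G protein gene Gnai2 by 0.19. Of 14 genes for chemokine presentation and cleavage 2 rose and 4 fell, a share of 42.9% against 27.0% of all genes. Of the 14, 8 lay above the median over all probe sets, where 44.2% of all genes passed. Mmp1a and Mmp9, proteases able to cut chemokines, fell, with log2 changes of -1.76 and -1.44, and Mmp14 and Adam10 rose by 0.72 and 0.67. Both group means of Mmp1a lay below the median over all probe sets, so the size of its fall is uncertain. Adam10 and Adam17 release Cx3cl1 and Cxcl16 from the cell surface, and Adam17 fell by 0.22. Sdc4, a heparan sulfate carrier, fell by 0.19 and passed only narrowly (adjusted p = 0.04996 in limma). Of 6 chemokine-linked genes outside the symbol rule, only Ppbp passed, a share of 16.7%.

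Markers of other cells were measured beside these immune genes. Of 23 leukocyte markers Cd14 rose by 0.74, Mrc1 and S100a8 fell (-0.63 and -0.38), and 20 did not pass, with 22 of 23 below the median over all probe sets. The share that passed was 13.0%, against 27.0% of all genes and 4.85% of genes below that median. The summed linear signal of the 23 markers ran from 363 to 381 with DMSO and from 391 to 410 with TKI258, without overlap. Without Cd14 it ran from 306 to 314 and from 293 to 314, so the separation of the groups rested on that gene. Its part in the chemokine results was not tested. The pan-leukocyte gene Ptprc read 3.72 to 3.81 with DMSO and 3.68 to 3.84 with TKI258, with a log2 change of -0.02. Of 11 fibroblast and endothelial markers 2 rose (18.2%), Dcn by 2.01 and Pdgfra by 1.50. Their summed linear signal ran from 554 to 585 with DMSO and from 1162 to 1235 with TKI258. Pdgfra carried most of this, since the sum without it ran from 240.0 to 250.4 and from 290.0 to 302.5. The other 9 markers, among them Col1a1, Col3a1, Pecam1 and Cdh5, did not pass, and the part of these markers in the results was not tested. Of 12 epithelial and mammary markers 10 lay above the median over all probe sets, among them Krt8, Krt18 and Epcam. In that list 6 rose, among them Krt14 by 1.79, Cdh1 by 1.09, Krt19 by 0.94 and Cldn4 by 0.89. Krt18 and Krt7 fell (-0.50 and -0.39). The 8 that passed, 66.7% of the list, were among the 10 above the median, where 44.2% of all genes passed. The summed signal of the 12 markers ran from 8253 to 9043 with DMSO and from 8066 to 8667 with TKI258.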

How the data were processed

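The deposited table covers 35557 probe sets on 6 arrays. Per the submitters' processing notes, tools used included RMA, affy and limma, with no role or order given. The deposited values were taken as log2 signals from their range and near-equal array quartiles. RMA makes array distributions alike, so a global shift would not show, and it compresses changes at low signal. Gene names came from GEO's annotation of the platform (2016), and the 21789 with 1 symbol gave 19938 genes (brightest probe set each).

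Groups came from the titles. All genes were fitted in limma 3.58.1 (R 4.3.3) with treatment as the only term, two-sided, with no filter. On data simulated for TKI258 against DMSO (19938 genes), 4 of 50 genes changed by 0.25 on the log2 scale, 47 of 50 by 0.5 and 50 of 50 by 1 were recovered, with 13 false calls. Each size had 50 changed genes, far fewer than the 5385 that passed in the data. Because the adjustment depends on that number, recovery in the data may differ from these counts. Alternatives were leaving out each array, a block for replicate number, quantile normalization, median centring, a filter on dim genes, mean of probe sets, trend with robust, array weights, an adjusted p of 0.01 and treat against a fold of 1.2. Probe sets tested singly and marker sums without 1 gene were added after the data were seen.

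The members and lists were chosen with earlier results of these data known. Named genes were all members past the threshold, up to 2 others per list with the smallest adjusted p, a fixed set of well-known members, and up to 4 genes per surrounding list. Any further gene was picked with its values in view. The number of arrays limits the precision.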

Additional observations from a re-analysis of the deposited data

How the results depend on the processing

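The counts of chemokine ligands (6) and receptors (3) past the threshold stayed within 1.5 times under all alternatives run. With treat against a fold of 1.2, the count over all genes was 1921 in place of 5385. Cxcl15, Cxcl5, Ccl5, Cx3cl1, Cxcr3 and Ackr3 kept their call in all 15 alternatives, Cxcl1 in 14, Ccl2 in 9 and Cxcr4 in 6, and 0 called members changed direction. Leaving out 1 array gave 4319 to 5240 genes over all, 5 to 7 ligands and 2 to 4 receptors. Centred on the array medians, 2497 genes were higher and 2622 lower, against 2866 and 2519, while 4 ligands still rose and 2 fell. With the replicate number as a block, 5364 genes, 7 ligands and 3 receptors passed, Ccl7 being added (adjusted p = 0.0304). Deviations of same-numbered dishes correlated at 0.02, 0.05 and 0.15, and those of differently numbered dishes at -0.11 to 0.07. With 3 dishes per group these values cannot settle whether same-numbered dishes were paired. No detection calls or background signals were available, which limits what dim members can show.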

Other observations

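Chemokine genes with near-identical copies were read only by probe sets with several symbols and stayed outside the comparison. The 4 probe sets shared by the Ccl21 copies held identical values, with means of 4.17 for DMSO and 4.20 for TKI258 and a log2 change of 0.03 (adjusted p = 0.822 in limma, over all probe sets). The 3 probe sets shared by Ccl27a and Ccl27b had log2 changes of -0.01, -0.01 and -0.0046. Ccl21 and Ccl27 bind Ccr7 and Ccr10.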
